A study of Mus musculus with 9 samples.

Results

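The slits, semaphorins, ephrins and netrins are the 4 classic families of guidance ligands, and with their receptors they make up the genes described here. They were chosen by name alone: every protein-coding gene of the GRCm38 annotation whose symbol is that of a slit, a Robo receptor, a semaphorin of classes 3 to 7, a plexin, an ephrin, an Eph receptor, a netrin, an Unc5 receptor, Dcc or Neo1. The rule gave 68 genes, of which 67 are among the 39179 genes of the count tables and Ntn3 was not analysed here. Of the 67, 51 passed the filter on low counts and were tested, 16 did not, and 42 had at least 1 count in every library.

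Guidance ligands steer growing axons, and the same signals attract or repel endothelial tips and bone cells. Slits are secreted and bind Robo receptors. Semaphorins are secreted (class 3) or held in the membrane, and signal through plexins, with neuropilins as co-receptors of most class 3 members. Ephrins are membrane-bound ligands of the Eph receptor tyrosine kinases, so that signalling needs contact between cells. Netrins are laminin-related secreted proteins read by Dcc, Neo1 and the Unc5 receptors. In bone, several of these pairs are known to act between vessels, osteoblasts and osteoclasts, among them Slit3 with Robo1, Sema4d with Plxnb1, and Efnb2 with Ephb4.

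The libraries hold RNA of capillaries and the cells touching them, cut from femur sections by laser microdissection (LMD) at the ossification front (OF), where new bone forms. Of the 9 libraries, 5 came from mice aged 4 weeks, called juvenile here, and 4 from mice aged 12 weeks, called adult. All came from Tg(TIE2GFP)287Sato/J mice on C57BL/6, in which the Tie2 promoter drives GFP in endothelial cells; the GFP served to find the vessels, no group lacked the transgene, and about 50 pieces were pooled per library. The labels give no sex and do not name the mouse behind a library, so p-values measure the spread between these libraries. Totals ranged from 4856833 to 7398483 counts in juvenile and from 5821596 to 8077362 counts in adult libraries. CPM are counts scaled to the size of the library. The least count taken as a measurable level, for counting error only, was 3. By the plain totals it corresponds to 0.371 to 0.618 CPM, whereas all other CPM values here use the TMM-scaled library size.

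Of 10 endothelial marker genes, 0 were called between the ages, and their summed level was 673 to 1001 CPM in juvenile and 833 to 987 CPM in adult libraries. Of 10 osteoblast markers, 5 were called higher and 1 lower in juvenile libraries, with summed levels of 96601 to 121037 CPM against 36042 to 56493 CPM. Called higher in adult libraries were 8 of 8 neutrophil markers (summed levels of 9.36 to 65.9 CPM in juvenile against 94.5 to 4512 CPM in adult libraries), 7 of 8 erythroid markers (320 to 2026 against 3429 to 30784 CPM), 2 of 8 macrophage markers (485 to 827 against 1105 to 1833 CPM), 2 of 8 osteoclast markers (12952 to 21215 against 16598 to 25625 CPM) and 1 of 8 chondrocyte markers (360 to 992 against 583 to 4271 CPM). Of the 8 markers of each other cell type listed, adipogenic stroma had 1 called in each direction. Pericytes and smooth muscle (7 tested), B cells (5 tested), T cells (1 tested) and skeletal muscle (1 tested) had 0 called by edgeR. Markers below the low-count filter could not be called, and 6 of the 8 chondrocyte markers were tested. Megakaryocytes and platelets had 1 of 2 tested called higher in adult libraries. Their sums were 2.82 to 14.5 CPM in juvenile and 62.0 to 4046 CPM in adult libraries. Adult library 2 stood apart with the lowest adult neutrophil sum, 94.5 CPM, and the highest chondrocyte sum, 4271 CPM. Of the 3 nerve and glia markers tested, 1 (Tubb3) was called higher at 4 weeks. Sox10 and Nefl were at 0 in all libraries, and the list summed to 15.8 to 47.0 CPM in juvenile and 43.3 to 103 CPM in adult libraries. In bulk libraries such as these, fewer cells of a type and less RNA per cell cannot be told apart. Counts on Xist outnumbered those on the Y chromosome in 7 libraries, 3 juvenile and all 4 adult, so the called members are also given for those 7, named the Xist-dominant libraries here.

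Sema3b, Unc5c and Slit3 were higher in the juvenile OF, and Epha6 was the one member higher in the adult OF. These were the 4 of 51 tested members (7.84%) with an adjusted p under 0.05 by the edgeR quasi-likelihood test, Benjamini-Hochberg adjusted over all 13418 genes tested. The same test called 3.88% of all genes tested. The 3 members higher at 4 weeks were 5.88% of those tested, against 1.99% of all genes, and the 1 member higher at 12 weeks was 1.96%, against 1.89%. At an unadjusted p under 0.05, the test marked 16 members (31.4%) and 17.3% of all genes. Normalised read counts, which are counts divided by the TMM-scaled library size, did not overlap between the ages for 8 of the 51 members (15.7%, against 9.15% of all genes tested). Of these, 6 were higher at 4 weeks (background 5.07%) and 2 at 12 weeks (background 4.08%). The log2 fold change of juvenile over adult was above 0 for 38 of 51 members (74.5%, against 49.5% of all genes), with a median of 0.43 against -0.0066. The summed markers of osteoblasts, neutrophils, erythroid cells, macrophages, and megakaryocytes and platelets also did not overlap between the ages. Some markers of osteoclasts, chondrocytes, adipogenic stroma, and nerve and glia were called as well. The part of all these lists in the counts of members was not tested. The number of members called higher at 4 weeks was 1 when juvenile library 5 or adult library 4 was left out, and 1 in the 7 Xist-dominant libraries.

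**Figure D1:**
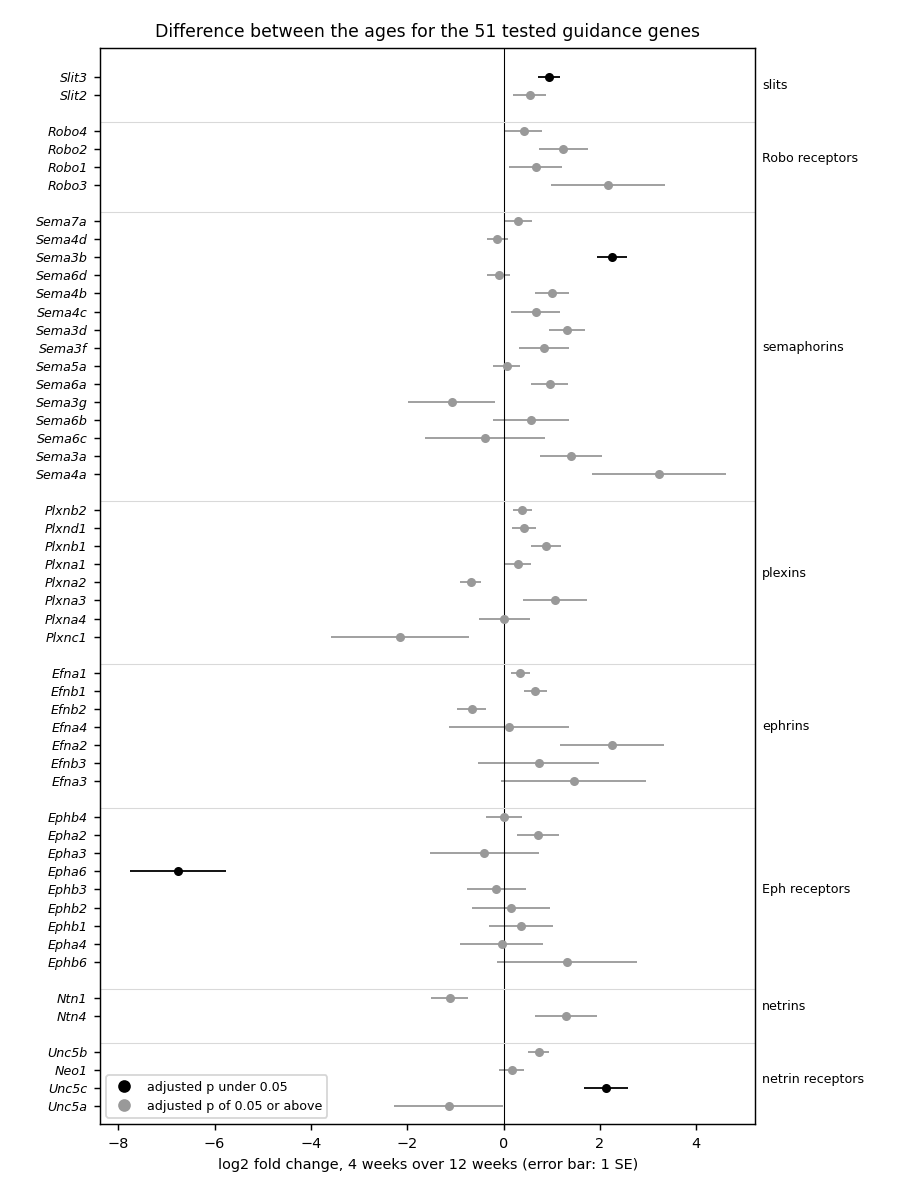
Log2 fold change of juvenile (4 weeks) over adult (12 weeks) for the 51 tested guidance genes, grouped by role, with 1 SE as the error bar; black points have an adjusted p under 0.05. Most points lie to the right of 0 (38 of 51), Sema3b, Unc5c and Slit3 are the called genes on that side, and Epha6 lies apart at -6.76.

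The 67 genes held 0.21% to 0.253% of all counts at 4 weeks and 0.173% to 0.201% at 12 weeks. Between 56 and 59 of them were detected per library at 4 weeks, and between 51 and 54 at 12 weeks. To compare genes with each other, levels were expressed per length, as CPM per kb of annotated exon. On this scale Efna1 (mean over the 9 libraries 46.6 CPM per kb) and Unc5b (37.3) stood highest, followed by Efnb1 (25.8), Sema7a (16.2), Sema4d (15.6), Plxnb2 (15.01), Plxnd1 (13.2), Sema3b (12.9) and Slit3 (11.5). These means pool the ages, and Sema3b had means of 19.9 CPM per kb in juvenile libraries, above Sema7a (17.7), and 4.17 in adult libraries. Below Efnb1 the order also depended on the length used: per kb of the longest transcript, of these genes, Sema4d stood at 26.7, Sema3b at 17.97, Plxnb2 at 17.8 and Sema7a at 16.2. Efna1 is a GPI-anchored ephrin, and Unc5b is the Unc5 receptor best known from endothelial cells.

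**Figure D2:**
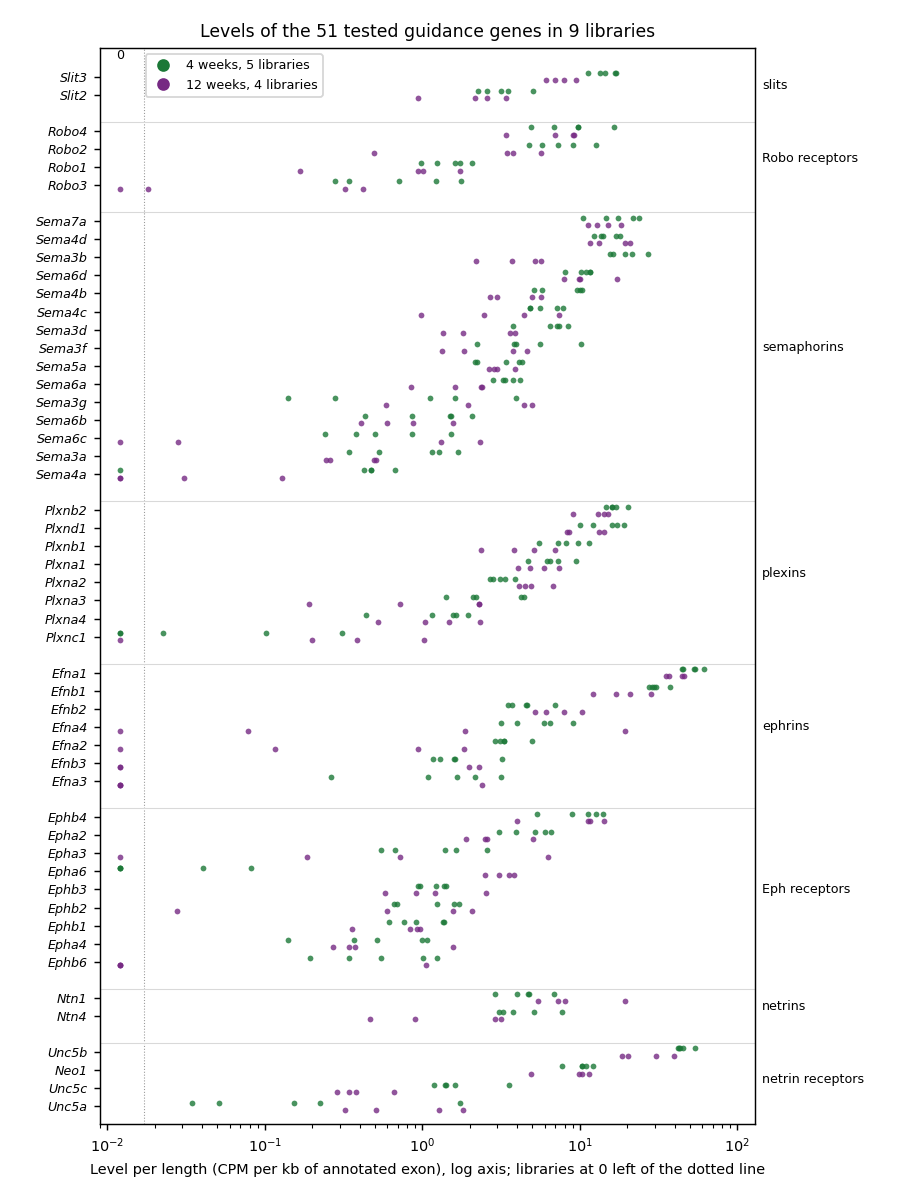
Level per length (CPM per kb of annotated exon, log axis) of the 51 tested guidance genes in each library, grouped by role and ordered by mean level; green points are the 5 juvenile and purple points the 4 adult libraries, and libraries at 0 are drawn left of the dotted line. Levels span from single counts to the means of 46.6 CPM per kb for Efna1 and 37.3 for Unc5b. The green and purple points do not overlap for 8 members: Sema3b, Slit3, Unc5b, Unc5c, Sema6a, Efna2, Plxna2 and Epha6.

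Summed by role, the slits reached 13.6 to 20.5 CPM per kb in juvenile and 8.89 to 11.6 in adult libraries. The Robo receptors summed to 15.99 to 24.6 against 8.60 to 15.4, the semaphorins to 92.2 to 110 against 59.7 to 79.3, and the netrin receptors to 54.3 to 67.9 against 26.1 to 50.5 CPM per kb. In these 4 roles no adult library reached the lowest juvenile library. Plexins (44.4 to 62.5 against 32.8 to 46.1), ephrins (93.9 to 106 against 59.9 to 99.99), Eph receptors (16.3 to 27.2 against 20.7 to 26.9) and netrins (6.06 to 12.4 against 8.21 to 22.3 CPM per kb) overlapped between the ages. The sums are a description, and the most abundant member of a role has the largest part in its sum.

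**Figure D3:**
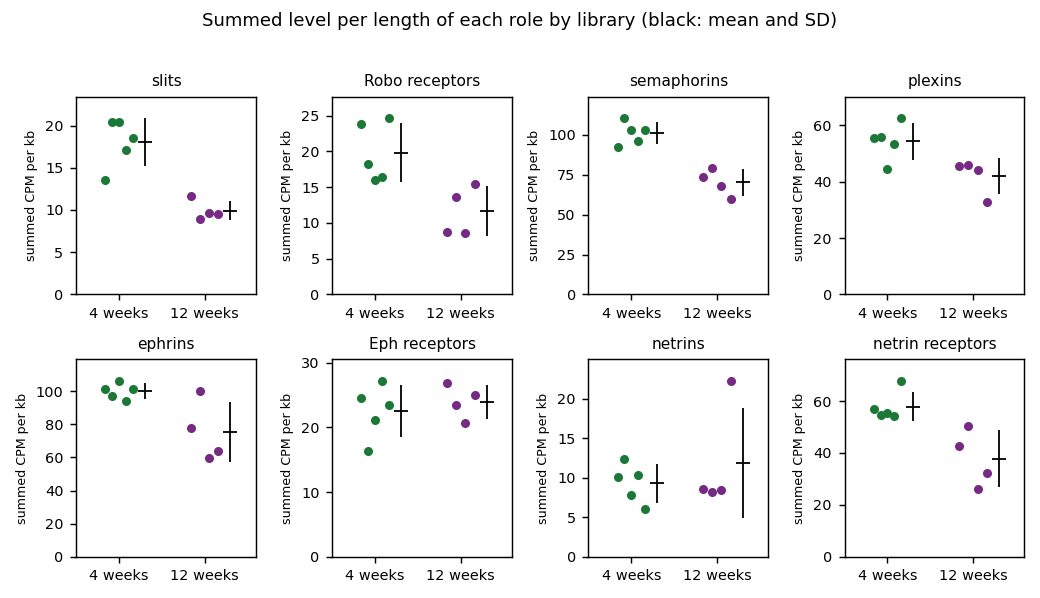
Summed level per length (CPM per kb) of each of the 8 roles in every library, juvenile in green and adult in purple, with the mean and SD in black. Slits, Robo receptors, semaphorins and netrin receptors show no overlap between the ages, and the high adult netrin point of 22.3 CPM per kb is adult library 4.

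Among the slits, Slit3 differed between the ages. Slit3 (ENSMUSG00000056427, chr11:35121224-35708507, plus strand of GRCm38) encodes a secreted Robo ligand that has been studied in bone as a signal between bone cells and vessels. Its normalised read counts were 431, 646, 638, 551 and 515 in juvenile libraries 1 to 5 and 360, 303, 233 and 263 in adult libraries 1 to 4. Every juvenile library was above every adult library, although the gap between juvenile library 1 and adult library 1 was smaller than the range within either age. The log2 fold change was 0.94 (SE 0.22), with an edgeR adjusted p of 0.0348. This call was close to the threshold: the adjusted p was above 0.05 in 7 of the 9 fits that left out 1 library, with a range of 0.028 to 0.0925, and was 0.165 in the 7 Xist-dominant libraries. Relative to the summed counts of the osteoblast markers, Slit3 stood at 0.63 to 1.05 per 1000 in juvenile and 0.716 to 1.16 per 1000 in adult libraries, which overlap. Relative to the endothelial markers it stood at 68.7 to 143 against 41.9 to 58.1 per 1000, which do not. Col1a1 had the most counts of the osteoblast markers in every library and was itself higher at 4 weeks (log2 fold change 1.37, edgeR adjusted p = 4.26e-04). The ratios to osteoblast markers, here and for Sema3b and Unc5c below, therefore depend largely on Col1a1. Other markers of that list differed from it, from Spp1 (0.17) and Phex (0.34) to Bglap (-2.04).

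Slit2, the other slit that could be tested, averaged 527 ± 171 normalised read counts at 4 weeks (SD, n = 5) and 361 ± 163 at 12 weeks (SD, n = 4) and was not called (log2 fold change 0.54, SE 0.35, edgeR adjusted p = 0.479). Per kb of annotated exon it reached 2.84 CPM, below the 11.5 of Slit3. On that scale Slit3 took 72.9% to 84.8% of the summed slit level in juvenile and 63.3% to 89.5% in adult libraries. The gap depended on the length used: per kb of the longest transcript, Slit2 stood at 7.25 and Slit3 at 13.3. Slit1, the slit best known from the nervous system, had 24 counts in all, in 3 libraries.

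All 4 Robo receptors had log2 fold changes above 0, and 0 were called by edgeR (1 had an unadjusted p under 0.05). Robo4, the endothelial Robo receptor, had the highest mean per kb of annotated exon (8.48 CPM per kb, against 5.85 for Robo2), but Robo2 was above it in juvenile libraries 3, 4 and 5 and adult library 3, and per kb of the longest transcript the order of the means was the reverse (9.08 for Robo4 and 11.6 for Robo2). Robo4 had normalised read counts of 552, 325, 227, 163 and 322 in juvenile and 231, 300, 113 and 307 in adult libraries. These values overlapped widely, with a log2 fold change of 0.42 (SE 0.39, edgeR adjusted p = 0.665). Robo2 had 507, 614, 769, 963 and 1342 normalised read counts in juvenile and 52.2, 398, 370 and 601 in adult libraries. The ages overlapped only through adult library 4 and juvenile library 1, and the log2 fold change was 1.24 (SE 0.51, edgeR adjusted p = 0.216). Robo1, a receptor for Slit3 in bone, was lower, at 1.28 CPM per kb, with a log2 fold change of 0.67 (SE 0.55, edgeR adjusted p = 0.616).

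Sema3b showed the largest juvenile excess among the called members. Sema3b (ENSMUSG00000057969, chr9:107597674-107609229, minus strand) encodes a secreted class 3 semaphorin known as a vitamin D-induced gene of osteoblasts. Its normalised read counts were 468, 486, 577, 812 and 641 in juvenile libraries and 111, 169, 65.2 and 155 in adult libraries. The lowest juvenile library was more than 2 times the highest adult library, so the ages were clearly apart. The log2 fold change was 2.26 (SE 0.31, edgeR adjusted p = 0.00263), and it was called in 18 of 18 alternative fits. Per 1000 counts of the osteoblast markers, Sema3b stood at 0.683 to 1.07 in juvenile and 0.201 to 0.685 in adult libraries, which overlap narrowly, and per 1000 counts of the endothelial markers at 74.5 to 192 against 11.7 to 29.6, which do not. Gnai2 and Ifrd2, which lie on either side of it, had log2 fold changes of 0.23 and -0.85 and were not called (edgeR adjusted p = 0.566 and 0.535).

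Within the class 3 semaphorins, Sema3b took 42.6% to 70.0% of the summed level per length in juvenile libraries and 21.5% to 43.7% in adult libraries. Sema3d came next in the juvenile mean, at 19.3% against 15.3% for Sema3f, although Sema3f was above it in juvenile libraries 1 and 2. Sema3d was at 359 ± 95.1 normalised read counts in juvenile and 144 ± 68.1 in adult libraries (SD, n = 5 and 4), with a log2 fold change of 1.31 (SE 0.37) and an edgeR adjusted p of 0.0709. It is named here after its values were seen, because DESeq2 called it. Sema3a, an osteoprotective factor made by osteoblasts and neurons, was low, at 29.6 to 147 normalised read counts in juvenile and 21.2 to 44.3 in adult libraries (log2 fold change 1.40, SE 0.64, edgeR adjusted p = 0.287). Sema3e, the ligand that Plxnd1 reads without a neuropilin, had 10 counts over the 9 libraries and was not tested. Sema3g went the other way without being called: it took 0.4% to 10.3% of the class 3 level in juvenile and 4.6% to 34.1% in adult libraries (log2 fold change -1.07, SE 0.90, edgeR adjusted p = 0.629).

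Of the 10 tested membrane semaphorins, 0 were called by edgeR and 3 (Sema4a, Sema4b and Sema6a, with log2 fold changes of 3.22, 1.002 and 0.96) had an unadjusted p under 0.05. Sema7a and Sema4d had the highest means over the 9 libraries per kb of annotated exon. Sema7a, a GPI-anchored semaphorin that binds plexin C1 and integrins, had a log2 fold change of 0.30 (SE 0.28, edgeR adjusted p = 0.674). Sema4d, which osteoclasts make and which acts on osteoblasts through Plxnb1, had 589 to 867 normalised read counts in juvenile and 563 to 1010 in adult libraries, with a log2 fold change of -0.13 (SE 0.22, edgeR adjusted p = 0.849). Over all alternative fits, the log2 fold change of Sema4d lay between -0.28 and 0.0014. Sema6a, a transmembrane ligand of plexins A2 and A4, did not overlap between the ages (156, 230, 207, 180 and 185 against 129, 131, 88.5 and 46.4 normalised read counts), yet its log2 fold change of 0.96 (SE 0.38) did not pass (edgeR adjusted p = 0.208).

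Of the 8 tested plexins, 0 were called by edgeR (2 at an unadjusted p under 0.05), and 6 of 8 had log2 fold changes above 0. Plxnb2 (15.01 CPM per kb) and Plxnd1 (13.2 CPM per kb), the receptor for Sema3e in endothelium, stood highest, with log2 fold changes of 0.39 (SE 0.20, edgeR adjusted p = 0.334) and 0.43 (SE 0.25, edgeR adjusted p = 0.429). Plxnb1, the Sema4d receptor of osteoblasts, had 330 to 686 normalised read counts in juvenile and 143 to 418 in adult libraries, a log2 fold change of 0.88 (SE 0.32) that did not pass (edgeR adjusted p = 0.158). Plxna2, a receptor for class 3 and class 6 semaphorins, was the second member without overlap that stood higher at 12 weeks. Its normalised read counts were 288, 305, 334, 361 and 416 in juvenile and 723, 530, 443 and 483 in adult libraries. The edgeR test did not call it (log2 fold change -0.68, SE 0.22, adjusted p = 0.111). Plxna2 made up 19.9% to 26.2% of the summed A plexin level in juvenile and 26.9% to 48.4% in adult libraries.

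Of the 7 tested ephrins, 0 were called by edgeR (2 at an unadjusted p under 0.05). Efna1, the most abundant member, had 510 to 708 normalised read counts in juvenile and 402 to 524 in adult libraries (log2 fold change 0.35, SE 0.19, edgeR adjusted p = 0.39). Efnb1, an X-linked transmembrane ephrin needed for normal skeletal patterning, had 597 to 814 against 261 to 613 (log2 fold change 0.66, SE 0.24, edgeR adjusted p = 0.169). Efnb2, a marker of arterial endothelium that osteoclasts also carry, had 199, 195, 160, 151 and 298 normalised read counts in juvenile and 441, 263, 342 and 223 in adult libraries. It was thus among the 13 members with a log2 fold change below 0 (-0.66, SE 0.30, edgeR adjusted p = 0.283). Efna2 did not overlap between the ages, at 44.4, 66.0, 41.4, 38.9 and 43.9 against 24.7, 0, 1.55 and 12.6 normalised read counts. The scatter among the adult libraries was wide, and the log2 fold change of 2.25 (SE 1.08) did not pass (edgeR adjusted p = 0.306).

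Epha6 was at or below 3 counts in every juvenile library and well above that in every adult library. Epha6 (ENSMUSG00000055540, chr16:59653483-60605531, minus strand) encodes an Eph receptor best known from the nervous system. The raw counts were 0, 3, 1, 0 and 0 in juvenile libraries 1 to 5 and 140, 121, 152 and 106 in adult libraries 1 to 4. The 4 juvenile counts against 519 adult counts give a ratio of rates of 115 (adult over juvenile, exact 95% interval 44.6 to 423, covering counting error only). The fitted log2 fold change was -6.76 (SE 0.999, edgeR adjusted p = 0.00309), a value that depends on the small count edgeR adds to libraries at 0. It was called in 16 of 17 alternative fits, and in the 7 Xist-dominant libraries the adjusted p was 0.0423. Normalised read counts in the adult libraries were 102, 127, 118 and 83.4, and adult library 2, the highest for Epha6, had the lowest neutrophil and the highest chondrocyte sum of the adult libraries. The neutrophil, erythroid, macrophage, and megakaryocyte and platelet sums were higher in every adult than in every juvenile library. The osteoclast and chondrocyte sums overlapped although single markers were called higher at 12 weeks. The part of these lists in the Epha6 difference was not tested. Counts are per gene, so they do not show where in the gene the reads lie. The antisense gene Gm9017 shares 107 of its 881 exon bases with Epha6 and had 0 counts in all libraries. Since the kit does not mark strand, reads within the shared bases cannot be assigned to either gene.

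The annotated start of Epha6 is shown because this was the one tested member with at most 3 counts in every library of 1 age. The 250 bases upstream of it (chr16:60605532-60605781 of GRCm38.p6, printed on the minus strand, 5′ to 3′, from RefSeq) overlap an exon of Gm9017 on the other strand and no annotated exon of Epha6. Capitals mark matches to GGGCGG, the core of a GC box, on either strand.
Epha6: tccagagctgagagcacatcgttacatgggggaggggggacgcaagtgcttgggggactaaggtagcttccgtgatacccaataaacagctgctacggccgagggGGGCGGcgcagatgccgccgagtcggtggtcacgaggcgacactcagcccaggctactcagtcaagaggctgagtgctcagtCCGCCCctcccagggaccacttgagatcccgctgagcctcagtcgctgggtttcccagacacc
The window held 2 such matches, 15 CpG dinucleotides and 62.8% G and C, against a median of 6 CpG and 52.4% over 32851 upstream windows of the same length. GGGCGG occurred in 32.7% of those windows on either strand. TATAAA (12.4% of windows) and TGTGGT, the core bound by RUNX factors (14%), did not occur in these letters.

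Among the other Eph receptors, 0 of the 8 tested were called by edgeR, and 0 had an unadjusted p under 0.05. Ephb4, the venous partner of Efnb2, was the most abundant Eph receptor per length (10.4 CPM per kb), with 304 ± 99.7 normalised read counts in juvenile and 300.2 ± 128 in adult libraries (SD, n = 5 and 4). Its log2 fold change was 0.02 (SE 0.37, edgeR adjusted p = 0.99), and the sign turned in 7 of 18 alternatives. Epha2 had 89.5 to 192 normalised read counts in juvenile and 55.9 to 147 in adult libraries (log2 fold change 0.72, SE 0.43, edgeR adjusted p = 0.447). In the summed EphA level, Epha2 took 41.6% to 75.3% in juvenile and 16.2% to 51.2% in adult libraries, while Epha6 took at most 1.1% in juvenile and 25.6% to 54.6% in adult libraries. Epha8 and Epha3 were erratic: adult library 3 held 173 of the 253 counts of Epha8, and Epha3 ranged from 0 to 342 normalised read counts within the adult libraries.

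Neither of the 2 tested netrins was called by edgeR, and they pointed in opposite directions. Ntn1, a netrin also secreted by osteoclasts, had normalised read counts of 269, 186, 158, 185 and 114 in juvenile and 213, 288, 317 and 764 in adult libraries. Adult library 4 was more than 2 times any other library, and without it the log2 fold change went from -1.12 (SE 0.38, edgeR adjusted p = 0.132) to -0.60 (adjusted p = 0.403). Ntn4, a netrin of vascular basement membranes, had 76.2, 181, 88.2, 120 and 71.8 normalised read counts in juvenile and 74.0, 20.96, 10.9 and 68.4 in adult libraries (log2 fold change 1.30, SE 0.65, edgeR adjusted p = 0.331). Ntn1 took 38.0% to 67.7% of the summed netrin level in juvenile and 63.2% to 94.6% in adult libraries.

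**Figure D4:**
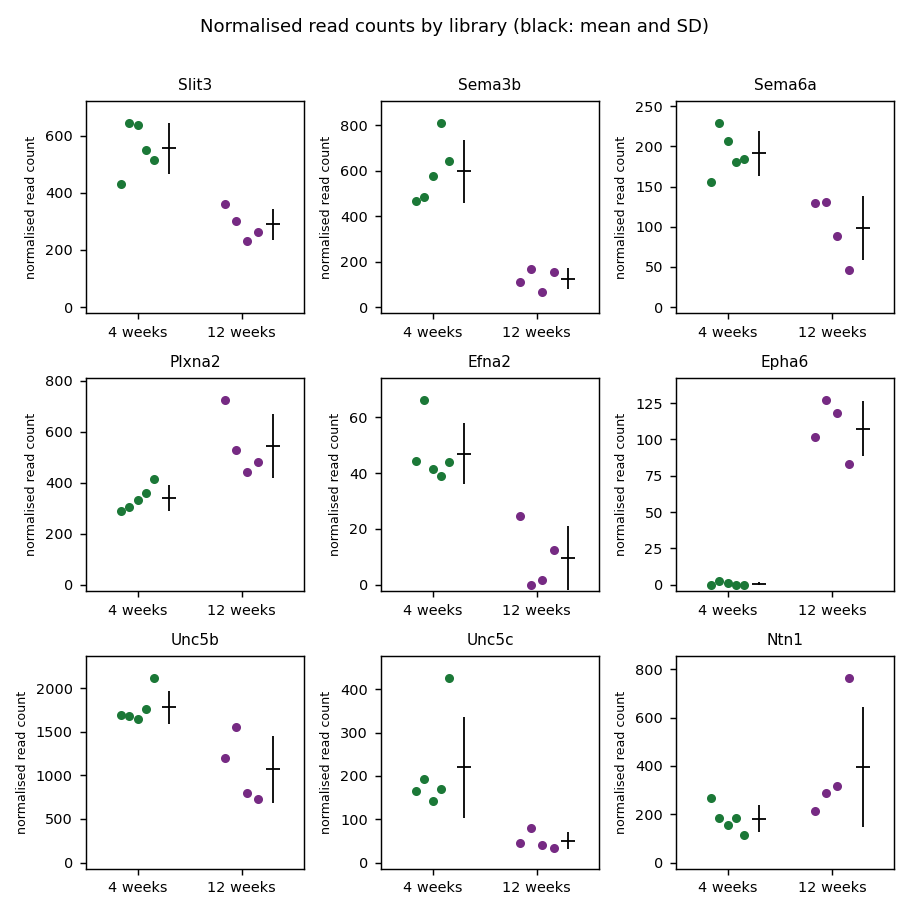
Normalised read counts by library for the 8 members without overlap between the ages and for Ntn1, juvenile (n = 5) in green and adult (n = 4) in purple, with the mean and SD in black. Epha6 is at 0 to 2.7 in the juvenile libraries, juvenile library 5 lies above the rest for Unc5c (426), and adult library 4 lies above the rest for Ntn1 (764).

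Unc5c was the called netrin receptor. Unc5c (ENSMUSG00000059921, chr3:141465216-141834924, plus strand) encodes a receptor that mediates repulsion by netrins. Its normalised read counts were 166, 193, 142, 171 and 426 in juvenile libraries and 45.7, 79.7, 41.2 and 34.6 in adult libraries. All juvenile libraries were above all adult libraries, and juvenile library 5 stood well above the other juvenile libraries. The log2 fold change was 2.13 (SE 0.46, edgeR adjusted p = 0.0236). Without juvenile library 5 it was 1.74 (edgeR adjusted p = 0.0919), without adult library 3 it was 2.03 (adjusted p = 0.0584), and without adult library 4 it was 1.97 (adjusted p = 0.0585). In the 7 Xist-dominant libraries, which leave out juvenile libraries 4 and 5, it was 1.74 (edgeR adjusted p = 0.212). Per 1000 osteoblast marker counts, Unc5c stood at 0.225 to 0.641 in juvenile and 0.127 to 0.233 in adult libraries, which overlap, and per 1000 endothelial marker counts at 26.5 to 70.9 against 6.62 to 13.1, which do not. The antisense gene Gm15688, which shares exon sequence with Unc5c, had at most 13 counts in a library.

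Unc5b, which restrains endothelial sprouting, was the most abundant receptor of all members, at 45.3 ± 4.9 CPM per kb in juvenile and 27.3 ± 9.8 CPM per kb in adult libraries (SD, n = 5 and 4). Its normalised read counts were 1691, 1678, 1642, 1766 and 2114 in juvenile and 1204, 1554, 800 and 730 in adult libraries. The ages did not overlap, but the adult libraries spread over a range of about 2 times and edgeR did not call the difference (log2 fold change 0.73, SE 0.22, adjusted p = 0.0927). Without adult library 2 the log2 fold change was 0.94 and passed (edgeR adjusted p = 0.0256). Unc5b took 93.2% to 97.1% of the summed Unc5 level in juvenile and 89.9% to 97.6% in adult libraries, so that Unc5c, at 2.7% to 6.2% against 1.2% to 1.6%, was a small part of the family at both ages. Neo1, which reads netrins and repulsive guidance molecules, had a log2 fold change of 0.17 (SE 0.25, edgeR adjusted p = 0.822). Dcc, the attractive netrin receptor of axons, had 4 counts in 1 juvenile library, and Unc5d had 0 counts in all 9. At these depths, 0 counts allow levels up to the 3-count limit of 0.371 to 0.618 CPM by plain totals.

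**Figure D5:**
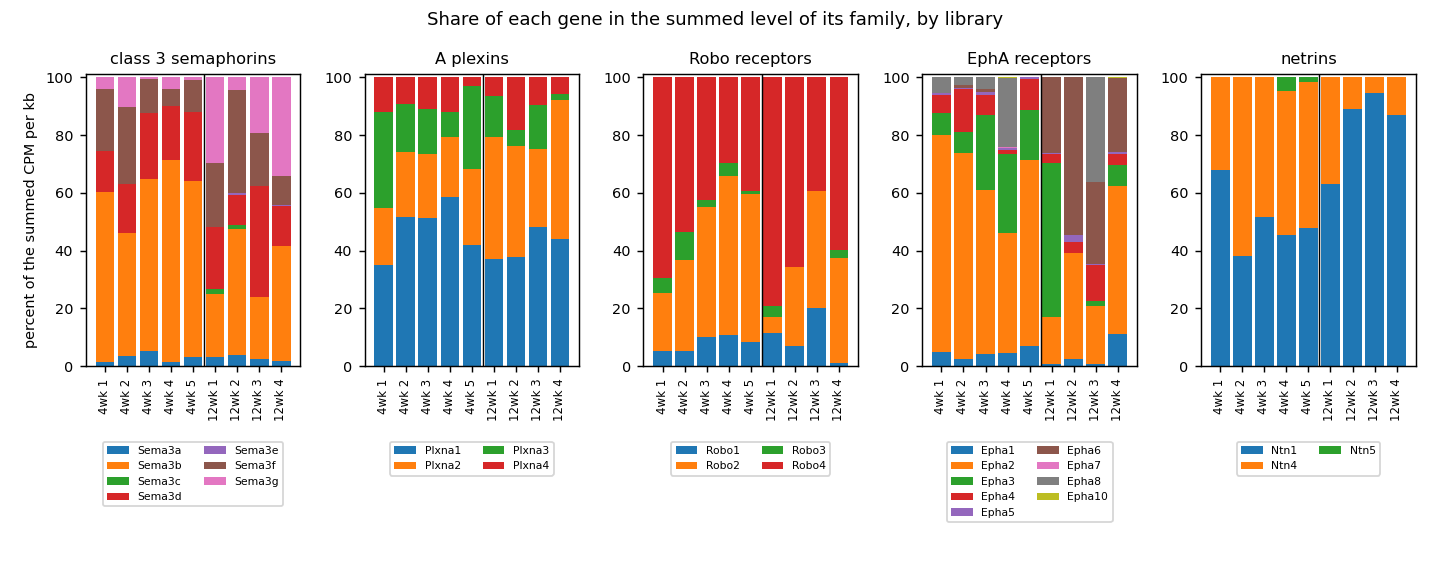
Share of each gene (percent) in the summed level per length of its family, for each library, with juvenile libraries left of the vertical line. Sema3b is the largest part of the class 3 semaphorins in juvenile libraries (42.6% to 70.0%), Epha6 is visible as a large part of the EphA receptors in adult libraries (25.6% to 54.6%), and Ntn1 takes at least 63.2% of the netrins in adult libraries.

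The other members below the filter had few counts, or most of their counts in few libraries. Sema3c had 26 counts, all in adult libraries 1 and 2, Sema5b had 41 of its 42 counts in adult library 1, and Sema4g reached 71 counts in juvenile library 4 and 68 in adult library 4 but 0 or 1 in most others. Efna5 (81 counts), Epha1 (83) and Epha5 (65) were spread over most libraries. Sema4f (11 counts), Ntn5 (7), Plxnb3 (3), Epha7 (2) and Epha10 (2) were at the limit of measurement. The remaining tested members, named in the plots, had log2 fold changes from -2.15 (Plxnc1, SE 1.43) to 3.22 (Sema4a, SE 1.39), and none of them was called. The median SE of the 47 tested members that were not called was 0.51 on the log2 scale.

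The co-receptors and intracellular partners of these pathways were read from a list of 89 genes, of which 72 were tested. Of these, 3 (4.17%, against 1.99% of all genes tested) were called higher at 4 weeks and 0 were called higher at 12 weeks by edgeR. An unadjusted p under 0.05 was found for 20 (27.8%, against 17.3% of all genes). DESeq2 gave an adjusted p for 80 of the list and called 13 higher at 4 weeks (16.2%, against 4.57% of all genes) and 2 higher at 12 weeks (2.5%, against 4.9%). The median log2 fold change of the list was 0.005, against -0.0066 for all genes. Gpc1, a glypican that binds slits, had normalised read counts of 8371, 7828, 5093, 7980 and 6838 in juvenile and 3831, 4438, 3244 and 3749 in adult libraries (log2 fold change 0.92, SE 0.17, edgeR adjusted p = 0.0135). Mical2, of a family of flavoenzymes that oxidise actin downstream of plexins, had 269 to 439 in juvenile and 20.2 to 90.4 in adult libraries (log2 fold change 2.57, SE 0.46, edgeR adjusted p = 0.0095). Sh3bp1, a protein linked to Plxnd1, had 190 to 327 against 15.2 to 98.5 (log2 fold change 2.23, SE 0.50, edgeR adjusted p = 0.0278). All 3 had groups that did not overlap. Sh3bp1 passed 0.05 in only 3 of the 9 fits that left out 1 library, with adjusted p up to 0.0665.

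Nrp2, a neuropilin that serves as co-receptor for class 3 semaphorins, did not overlap between the ages (3553 to 5312 against 2861 to 3378 normalised read counts) but did not pass (log2 fold change 0.50, SE 0.16, edgeR adjusted p = 0.0966). Nrp1 had 1588 to 2366 against 1458 to 1953 normalised read counts (log2 fold change 0.21, SE 0.17, edgeR adjusted p = 0.607). The class 3 semaphorins, ligands of these co-receptors, summed to 26.4 to 38.7 CPM per kb in juvenile and 10.1 to 16.8 CPM per kb in adult libraries. Sema3b alone took 42.6% to 70.0% of that sum in juvenile and 21.5% to 43.7% in adult libraries. The sum therefore does not stand for the whole class, and Sema3g had the higher mean in adult libraries.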

How the data were processed

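The authors counted paired-end reads per Ensembl gene after TopHat2 and Bowtie2 had mapped them, at default settings, to mm10 (GRCm38), and deposited whole-number counts for each library without normalisation or filtering. The submitters' processing notes name featureCounts; its settings, the tool versions and the annotation release are not given in the sources used here. The libraries were made with the SMART-Seq v4 and Nextera XT kits, which amplify cDNA by PCR and do not mark strand.

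Gene names and positions came from the GENCODE annotation of GRCm38, which holds 37693 of the 39179 gene identifiers (96.2%). The comparison of the ages used edgeR 4.0.16 in R 4.3.3 (filterByExpr, TMM, quasi-likelihood F test, age as the only term), with p-values adjusted by the Benjamini-Hochberg method over 13418 genes and a threshold of 0.05. The SE is the log2 fold change divided by the square root of F. Normalised read counts are counts divided by the TMM-scaled library size relative to its geometric mean, and levels per length are CPM divided by the union of annotated exons. The alternatives were DESeq2 1.42.0 size factors, upper-quartile scaling, DESeq2 with default settings (the tool the study names), voom of limma 3.58.1 with weights for sample quality, no filter, at least 10 counts in every library, a replicate block, the Xist-dominant libraries, a fit without haemoglobin, immunoglobulin, mitochondrial and sex-linked genes, and each library left out in turn. The fits were tested on simulated data. Of 36 pairs of libraries, 0 held identical counts.

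Members with values in the text are those called, those without overlap between the ages, the 2 highest per length of each of the 8 roles, and 13 with known roles in bone or vessels. Sema3d, Sema3f, Sema3g, Sema4a, Sema4b, Plxnc1, Efna3, Epha3 and members below the filter were added after their values were seen. The partner and marker lists were written out by hand. The members and lists were chosen with earlier results of these data known. Figures were drawn with matplotlib 3.10.9.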

Additional observations from a re-analysis of the deposited data

Results flagged for a closer look

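In 3 of 54 groups of libraries examined (the 27 named members at each age), the highest library stood apart from the others by Dixon's criterion; chance alone gives about 1 in 20, or 2.7 such groups. For Efna2, juvenile library 2 had 66.0 normalised read counts and the other juvenile libraries 38.9 to 44.4. For Unc5b, juvenile library 5 had 2114 and the others 1642 to 1766. For Unc5c, juvenile library 5 had 426 and the others 142 to 193. Both netrin receptors were thus highest in the same library, and all 3 genes kept their direction without the library concerned, with log2 fold changes of 2.09 (Efna2), 0.66 (Unc5b) and 1.74 (Unc5c).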

How the results depend on the processing

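Of the called members, Sema3b was called in 18 of 18 alternatives, Epha6 in 16 of 17, Unc5c in 12 of 18 and Slit3 in 8 of 18. The reported fit called 3 members higher at 4 weeks and 1 at 12 weeks, among 520 of 13418 genes. DESeq2 with default settings called 5 and 2 (adding Sema3d, Unc5b and Plxna2) among 1490 genes. Of all genes with a DESeq2 adjusted p, it called 4.57% higher at 4 weeks and 4.9% higher at 12 weeks. The Xist-dominant libraries gave 1 and 1 among 73 of 13876 genes. A minimum of 10 counts in every library gave 4 and 0, since Epha6 is then not tested, among 647 of 9847 genes. Leaving out single libraries gave 1 to 3 members higher at 4 weeks and 1 at 12 weeks, among 262 to 651 genes called in all. For the partner genes, 3 and 0 in the reported fit, DESeq2 called 13 and 2, the minimum of 10 counts 7 and 0, the Xist-dominant libraries 0 and 0, and single libraries left out 2 to 6 and 0. With the replicate number as a block, 1 member (Sema3b, edgeR adjusted p 0.0297) and 0 partner genes were called higher at 4 weeks and 0 members at 12 weeks, among 89 genes. Correlations of deviations between libraries of the same number were small (-0.0306 to 0.0289), yet 3 of 4 juvenile libraries correlated best with their own number. The labels do not say whether a number marks a shared batch, so the need for the block cannot be decided. Among the 26 named members with a fold change, directions turned for 3; other members were not examined for this. Ephb4 went from 0.02 to -0.0067 with DESeq2, -0.0050 with its size factors, -0.079 in the Xist-dominant libraries and -0.27 to 0.19 with single libraries left out. Sema4d ranged from -0.28 to 0.0014 and Neo1 from -0.057 to 0.27 in those fits. DESeq2's size factors moved the median of all genes by -0.023. Dividing by the longest transcript moved 11 of 27 levels per length by over 1 SD, and plain totals moved 0. The cause of these changes was not tested. Low counts limit the members below the filter, and differences cannot be read for members with an SE near 1 or above, other than Epha6.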
